A study of Mus musculus with 15 samples.

Results

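The Gadd45 stress gene family of the mouse has 3 members among the 12393 genes named by the probe sets of the array, Gadd45a, Gadd45b and Gadd45g, and its messenger RNA was followed in the gastrocnemius, a fast calf muscle, of old calorie-restricted, old and young mice. Every probe set that the platform annotation assigns to 1 of these symbols was taken. This gave 5 of the 22626 probe sets tested, 1 for Gadd45a (1449519_at), 3 for Gadd45b (1449773_s_at, 1450971_at and 1420197_at) and 1 for Gadd45g (1453851_a_at). A probe set is a group of short oligonucleotides, and an array gives it 1 scaled intensity. By the naming of the maker, the ending _s_at marks probes that can also match another transcript and _a_at probes shared by alternative transcripts of a gene, so 1449773_s_at may read more than Gadd45b. The affinity of the probes differs between probe sets, and levels are therefore compared between mice and never between genes.

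The study asked which transcripts differ with age in this muscle and which of these differences are smaller under caloric restriction (CR). All 15 animals were male C57BL/6NHsd mice, bought as young animals and housed singly for life, with 1 array per mouse and 5 mice per group. The old CR mice were 25 months old and ate 26% less energy for life, on a diet enriched in protein, vitamins and minerals, so that these components were nearly the same as in the control diet. The old mice were 25 months old and the young mice 5 months old, and both were kept on the control diet of 84 kcal per week, which is itself below free feeding. There was no young CR group. The arrays read whole muscle, so fewer cells of a type and less RNA per cell cannot be told apart.

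GADD45 proteins are small, acidic and mostly nuclear, and have no enzyme activity known. They act by binding others: the cell cycle inhibitor p21, the replication clamp PCNA, the CDK1 and cyclin B1 pair, and the kinase MAP3K4, through which they feed the p38 and JNK stress pathways. The genes are switched on quickly by DNA damage and other stress. Gadd45a is a classic target of p53 and is known in skeletal muscle for its induction after denervation, Gadd45b responds to TGF-beta and NF-kB signals, and Gadd45g to cytokines.

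The upstream sequences are shown because the family is defined by its induction at the level of transcription. They are the 250 bases before the RefSeq start of each gene in build GRCm38.p6, written 5′ to 3′ on the strand of the gene. The window of Gadd45a is chr6:67037408-67037657 on the minus strand, that of Gadd45b chr10:80929841-80930090 on the plus strand and that of Gadd45g chr13:51846425-51846674 on the plus strand. Capitals mark the CCAAT box and the octamer ATTTGCAT on either strand, 2 elements that are known to carry stress induction of the human GADD45A promoter.
Gadd45a: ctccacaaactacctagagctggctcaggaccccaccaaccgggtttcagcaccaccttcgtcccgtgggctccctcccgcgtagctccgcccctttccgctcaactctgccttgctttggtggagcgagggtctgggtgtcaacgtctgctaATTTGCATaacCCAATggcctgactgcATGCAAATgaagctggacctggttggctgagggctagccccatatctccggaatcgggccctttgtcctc
Gadd45b: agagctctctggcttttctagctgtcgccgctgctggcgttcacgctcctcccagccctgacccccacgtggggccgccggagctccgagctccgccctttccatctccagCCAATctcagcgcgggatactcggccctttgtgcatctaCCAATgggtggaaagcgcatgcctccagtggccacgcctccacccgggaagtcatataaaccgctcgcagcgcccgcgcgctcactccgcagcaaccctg
Gadd45g: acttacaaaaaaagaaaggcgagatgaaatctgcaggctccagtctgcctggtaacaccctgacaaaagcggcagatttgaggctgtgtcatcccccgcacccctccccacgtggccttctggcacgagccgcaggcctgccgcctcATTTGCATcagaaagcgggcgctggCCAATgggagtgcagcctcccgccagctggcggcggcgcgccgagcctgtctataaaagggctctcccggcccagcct

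All 3 windows hold a CCAAT box, as do 33.8% of the 32851 mouse promoter windows of this length, and Gadd45b holds 2. The octamer is present in 1.6% of the windows. It occurs 2 times in Gadd45a, at 97 to 90 and 70 to 63 bases upstream with the CCAAT box between them, and 1 time in Gadd45g, at 103 to 96 bases upstream, while no match to these letters lies in the Gadd45b window. A CCAAT box and an octamer stand together in 0.767% of all windows and in 2 of the 3 members. Other elements were searched on both strands. The E-box CACGTG was found in Gadd45b and Gadd45g (6.02% of windows), the GC box CCGCCC in Gadd45a and Gadd45b (32.7%), TATAAA in Gadd45b and Gadd45g (12.4%), a p53 consensus decamer in Gadd45a at 40 to 31 bases upstream (7.13%), and the cyclic AMP response element TGACGTCA in none (1.55%). None of these matches overlapped another. A match describes the sequence and does not show that a factor binds there.

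Before the comparisons, the arrays themselves were compared. The 14 fiber markers, among them Acta1, Ckm and Myh4, were bright on every array, the lowest single value being 2695. Their summed intensity lay between 302703 and 426161 in old CR mice, 265091 and 365657 in old mice and 337813 and 385507 in young mice. A pair of old arrays stood apart in 8 keratinocyte markers (Krt5, Krt14 and others), with sums of 10993 (replicate 2) and 12167 (replicate 3), against 1005 to 1195 in the other 3 old mice, 776 to 1157 in old CR mice and 708 to 3331 in young mice. RNA integrity was read from control probe sets at both ends of the transcript, as the log2 intensity at the 3' end minus that at the 5' end. The difference for Actb was between -0.49 and -0.24 in old CR mice, -0.15 and 0.15 in old mice and -0.40 and -0.17 in young mice, so the old arrays did not overlap either other group. For Gapdh it was -0.34 to -0.07 in old CR mice, 0.13 to 0.40 in old mice and -0.20 to 0.28 in young mice. Its part in the results was not tested beyond the fits that carry it as a covariate. The old arrays stood apart in Actb, so this covariate and the group cannot be fully told apart. With it, 0 of the 22626 probe sets passed an adjusted p under 0.05 between old and young mice, and 0 between old CR and old mice.

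Old and young mice were compared first, to see which members differ with age. Gadd45a averaged higher with age and the most variable Gadd45b probe set averaged lower, each more than 2-fold, but none of the 5 probe sets passed the test over all probe sets. In limma with Benjamini-Hochberg adjustment, 0 of 5 were called at an adjusted p under 0.05, where 0.265% of all 22626 probe sets were called. At an unadjusted p under 0.05, 4 of 5 would pass, beside 15.5% of all probe sets in either direction (6.24% higher and 9.25% lower). The 1 higher in old mice was Gadd45a, and the 3 lower were all Gadd45b. The median log2 difference of the 5 probe sets was -0.30, and that of all probe sets was -0.06. As 3 of the 5 read Gadd45b, this median weighs that gene most and does not describe a shift of the family.

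Gadd45a, the member best known as a p53 target, had intensities of 296, 432, 247, 924 and 546 in old mice 1 to 5, and of 271, 116, 210, 203 and 247 in young mice 1 to 5. Of the old mice, 4 lay above every young mouse. Old mouse 3 lay inside the young range, and old mouse 4 was far above the rest. The means were 489 ± 270 in old mice and 210 ± 59.0 in young mice (SD, n = 5 each). The log2 difference was 1.12 (SE 0.34), which is 2.17-fold with a 95% interval of 1.32 to 3.57 (limma, adjusted p = 0.135). Without old mouse 4 the log2 difference was 0.84 (limma, adjusted p = 0.221). With RNA integrity (the mean of both 3' minus 5' differences) as a covariate it was 1.64 (limma, adjusted p = 0.585), and with both keratin-rich old arrays left out it was 1.40 (limma, adjusted p = 0.206).

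Gadd45b, known from myeloid differentiation as Myd118, is read by 3 probe sets, and the mean of each was lower in old than in young mice. The probe set 1450971_at gave 151, 398, 235, 494 and 298 in old mice 1 to 5 and 854, 782, 457, 640 and 886 in young mice 1 to 5. The groups touched in 1 place only, where old mouse 4 lay above young mouse 3. The means were 315 ± 135 in old mice and 724 ± 177 in young mice (SD, n = 5 each). The log2 difference was -1.28 (SE 0.32), or 0.413-fold with a 95% interval of 0.257 to 0.663 (limma, adjusted p = 0.0942). Without young mouse 3 the log2 difference was -1.43 and the adjusted p in limma 0.0248. That call is not particular to this probe set: without this array 334 of all probe sets were called higher and 733 lower, against 27 and 33 with it. With RNA integrity as a covariate the log2 difference was -0.74 (limma, adjusted p = 0.856).

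The other Gadd45b probe sets gave smaller differences. For 1449773_s_at the intensities were 683, 1053, 686, 703 and 738 in old mice 1 to 5 and 1096, 1018, 1226, 862 and 904 in young mice 1 to 5. Old mouse 2 stood among the young mice and the other 4 old mice lay below all of them. The log2 difference was -0.41 (SE 0.19, limma, adjusted p = 0.309), and -0.73 with RNA integrity as a covariate (limma, adjusted p = 0.719). For 1420197_at the intensities were 193, 215, 199, 247 and 191 in old mice 1 to 5 and 258, 293, 230, 265 and 241 in young mice 1 to 5. Again 4 of the 5 old mice lay below every young mouse, and old mouse 4 was inside the young range. This gave a log2 difference of -0.30 (SE 0.11, limma, adjusted p = 0.216), and -0.17 with RNA integrity as a covariate (limma, adjusted p = 0.926).

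Gadd45g, first described as a cytokine response gene, showed no shift between the ages beyond its spread. Its intensities were 461, 682, 680, 926 and 1163 in old mice 1 to 5 and 896, 1064, 1005, 515 and 531 in young mice 1 to 5. In both groups the highest mouse stood more than 2 times above the lowest. The means were 782 ± 269 in old mice and 802 ± 262 in young mice (SD, n = 5 each). Their log2 difference was -0.04, with a 95% interval of -0.78 to 0.70 (limma, adjusted p = 0.973). With RNA integrity as a covariate it was 0.27 (limma, adjusted p = 0.961).

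**Figure D1:**
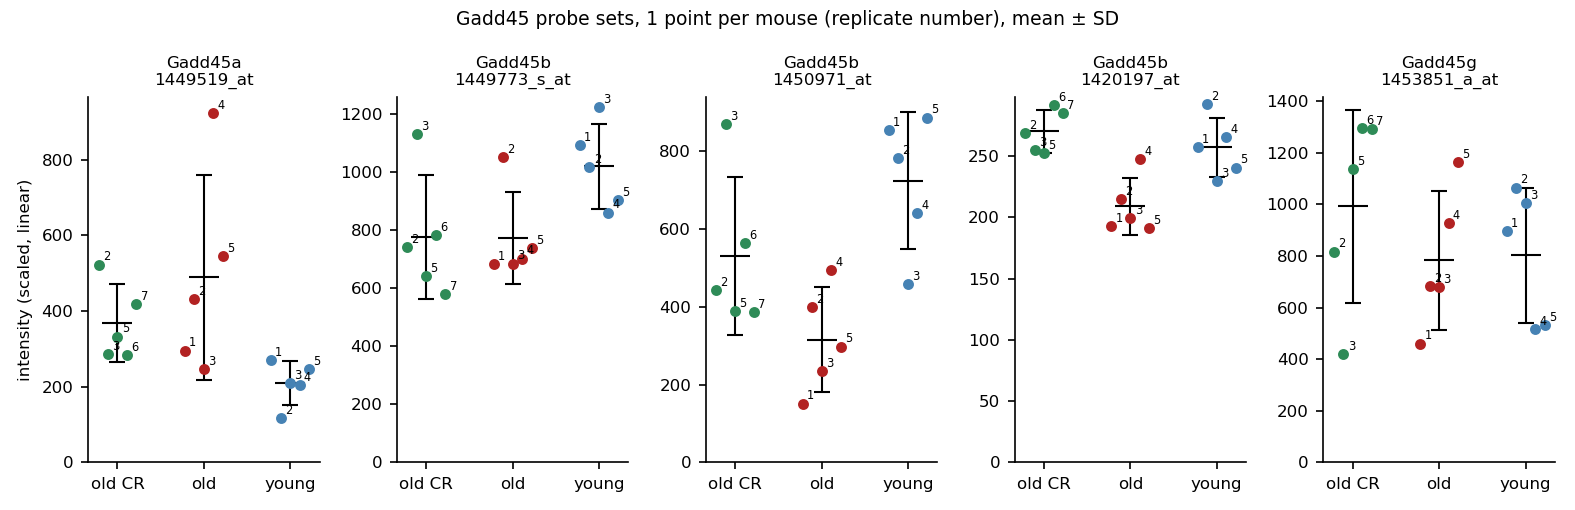
Scaled linear intensity of the 5 Gadd45 probe sets, with 1 point per mouse (number: replicate) for old CR, old and young mice, and the mean ± SD of each group. Gadd45a spans 247 to 924 in old mice and 116 to 271 in young mice, and the Gadd45b probe set 1450971_at spans 151 to 494 in old mice and 457 to 886 in young mice.

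Old CR and old mice were compared next, to see what the diet did at the same age. The old mice stand in this comparison and in the one above, so the 2 sets of differences are not independent. In limma 0 of 5 members were called, where 4.87% of all probe sets were. At an unadjusted p under 0.05, 2 of 5 would pass, both higher in old CR mice and both Gadd45b, beside 12.5% of all probe sets that were higher at this level (21.9% in either direction). The median log2 difference was 0.30 for the 5 probe sets, 3 of them Gadd45b, and 0.06 for all probe sets.

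Gadd45b 1420197_at was the only member whose groups did not overlap, which 8.89% of all probe sets also did. It measured 269, 255, 253, 292 and 285 in old CR mice 2, 3, 5, 6 and 7, and 191 to 247 in old mice, with a median of 199. All 5 old CR mice lay above the highest old mouse, the gap being small beside the scatter of the old mice. The means were 271 ± 17.5 in old CR mice and 209 ± 23.4 in old mice (SD, n = 5 each). On the log2 scale the difference was 0.38 (SE 0.11, limma, adjusted p = 0.0696). With RNA integrity as a covariate it was 0.19 (limma, adjusted p = 0.917).

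Gadd45b 1450971_at measured 443, 869, 389, 564 and 385 in old CR mice 2, 3, 5, 6 and 7, and 151 to 494 in old mice, with a median of 298. Old CR mice 3 and 6 lay above every old mouse, and the other 3 lay within the old range. This gave a log2 difference of 0.79 (SE 0.32), or 1.73-fold with a 95% interval of 1.08 to 2.78 (limma, adjusted p = 0.163). It was 0.06 with RNA integrity as a covariate (limma, adjusted p = 0.992). The third Gadd45b probe set, 1449773_s_at, measured 743, 1133, 644, 784 and 582 in the same old CR mice and 683 to 1053 in old mice, with a median of 703. These groups covered each other, and the log2 difference was -0.01 with a 95% interval of -0.41 to 0.39 (limma, adjusted p = 0.984), or 0.43 with the covariate (limma, adjusted p = 0.887). The 3 probe sets of Gadd45b thus did not give 1 value for the diet.

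Gadd45a measured 523, 286, 333, 283 and 417 in old CR mice 2, 3, 5, 6 and 7, and 247 to 924 in old mice, with a median of 432. No old CR mouse lay outside the old range, and the old CR mice were closer together. The means were 368 ± 102 in old CR mice and 489 ± 270 in old mice (SD, n = 5 each), and the log2 difference was -0.29, with a 95% interval of -1.01 to 0.43 (limma, adjusted p = 0.663). Most of it came from 1 animal, since without old mouse 4 the log2 difference was -0.02 (limma, adjusted p = 0.982). With RNA integrity as a covariate it was -1.01 (limma, adjusted p = 0.85). Gadd45g measured 817, 419, 1137, 1296 and 1290 in old CR mice 2, 3, 5, 6 and 7, and 461 to 1163 in old mice, with a median of 682. Old CR mouse 3 was the lowest of all these animals and old CR mice 6 and 7 were the highest. For Gadd45g the log2 difference was 0.30, with a 95% interval of -0.44 to 1.04 (limma, adjusted p = 0.658), and -0.12 with the covariate (limma, adjusted p = 0.986).

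Old CR and young mice were compared to see what remains of the age difference under the diet. In limma 0 of 5 members were called, where 0.0884% of all probe sets were, and 2 of 5 had an unadjusted p under 0.05, beside 12.1% of all probe sets. Gadd45a was the only member without overlap, as were 3.57% of all probe sets: the lowest old CR mouse had 283 and the highest young mouse 271. Its log2 difference was 0.83 (SE 0.34), or 1.77-fold with a 95% interval of 1.08 to 2.92 (limma, adjusted p = 0.343). Gadd45b 1449773_s_at had a log2 difference of -0.42 (limma, adjusted p = 0.383), with 4 of the 5 old CR mice below every young mouse. The remaining log2 differences were -0.48 for Gadd45b 1450971_at (adjusted p = 0.595), 0.08 for Gadd45b 1420197_at (adjusted p = 0.849) and 0.26 for Gadd45g (adjusted p = 0.819), all by limma. With RNA integrity as a covariate the log2 differences were 0.63 for Gadd45a, -0.30 for Gadd45b 1449773_s_at, -0.68 for Gadd45b 1450971_at, 0.03 for Gadd45b 1420197_at and 0.15 for Gadd45g, and none was called.

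**Figure D2:**
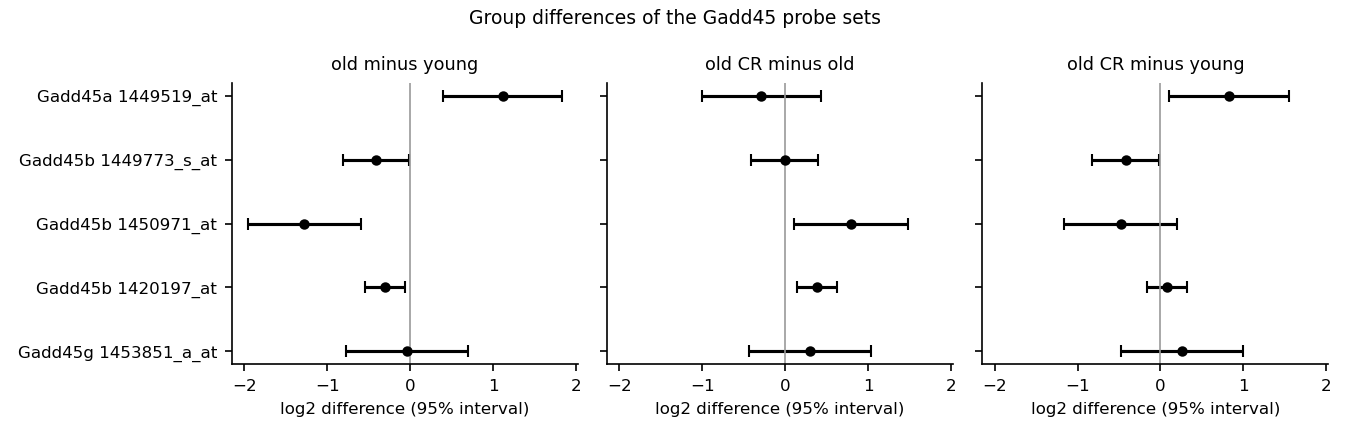
Log2 difference with its 95% interval (limma, 15 arrays in 1 fit) of the 5 Gadd45 probe sets for old minus young, old CR minus old and old CR minus young. Between old and young mice the interval of Gadd45a runs from 0.40 to 1.83 and that of Gadd45b 1450971_at from -1.96 to -0.59, and that of Gadd45g includes 0 in all 3 panels.

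CR prevention states how much of an age difference was absent from old CR mice, in percent, as 100 × (old - old CR) / (old - young) from group means. It was 43.2% for Gadd45a, 52.6% for Gadd45b 1450971_at, 1.82% for Gadd45b 1449773_s_at and 128% for Gadd45b 1420197_at. Taken over single old CR mice, its SD was 36.6, 49.7, 86.3 and 36.4 percentage points for these probe sets in the same order. From means of log2 intensity it was 25.8% for Gadd45a, 62.2% for Gadd45b 1450971_at, -2.44% for Gadd45b 1449773_s_at and 125% for Gadd45b 1420197_at. For Gadd45a it lay between 6.89% and 57.0% when 1 array was left out, the lowest value coming without old mouse 4. For Gadd45b 1450971_at it lay between 31.9% and 61.5%, the lowest without old CR mouse 3, and for Gadd45b 1420197_at between 112% and 156%. For Gadd45b 1449773_s_at it ran from -34.0% without old CR mouse 3 to 23.4% without old mouse 2, so that not even its sign held. It has no meaning for Gadd45g, whose age difference is near 0.

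The empirical Bayes model of the study, a lognormal-normal mixture over 5 patterns of equal and unequal groups, was also fitted to the 11313 brighter probe sets, those with the highest mean over all arrays, in which all 5 members lie. It gives a posterior probability (PP) that 2 groups differ, called above 0.90. For old against young mice it called 2 of 5 members, Gadd45a (PP = 0.999) and Gadd45b 1450971_at (PP = 0.99999), beside 4.86% of them. For old CR against old mice it called 1 of 5, Gadd45b 1450971_at (PP = 0.999), beside 6.67%, and gave Gadd45a a PP of 0.243. For old CR against young mice it called 1 of 5, Gadd45a (PP = 0.983), beside 2.09%. The PP of every other member was under 0.14 in each comparison. The model assumes 1 spread within groups for all probe sets, and both probe sets it called spread more than most.

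The members differed in how far mice of 1 group lay apart. The pooled SD of log2 intensity within groups was 0.57 for Gadd45g, 0.56 for Gadd45a and 0.53 for Gadd45b 1450971_at, at the percentiles 95.7, 95.3 and 94.5 of the brighter probe sets, whose median SD was 0.26. It was 0.29 for Gadd45b 1449773_s_at (percentile 59.6) and 0.13 for Gadd45b 1420197_at (percentile 3.31). Gadd45a varied most in old mice, with a coefficient of variation of 27.7% in old CR mice, 55.3% in old mice and 28.1% in young mice. Gadd45g varied by about the same amount in every group, at 37.8% in old CR mice, 34.4% in old mice and 32.7% in young mice. No test of these spreads was made.

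Gadd45a and Gadd45b were also set against each other within each mouse, as the log2 intensity of Gadd45a minus that of a Gadd45b probe set. The size of this quantity depends on the probes, and only its differences between mice can be read. With 1450971_at it was 0.97, 0.12, 0.07, 0.90 and 0.88 in old mice 1 to 5 and -1.65, -2.75, -1.12, -1.65 and -1.84 in young mice 1 to 5, so the ages did not overlap. Old CR mice took values between -1.61 and 0.24. Old and young mice were also apart with 1420197_at, at 0.31 to 1.90 in old mice and -1.33 to 0.07 in young mice, and with 1449773_s_at, at -1.47 to 0.40 in old mice and -3.13 to -1.87 in young mice. With Gadd45g in place of Gadd45b they overlapped, at -1.46 to 0.00 in old mice and -3.19 to -1.10 in young mice. These quantities combine differences already given and were not tested. With Gadd45a averaging higher and Gadd45b lower in old mice, the differences add up in those with Gadd45b. Their lying apart is therefore no separate result. They also share the same Gadd45a values, and how many other pairs of probe sets lie apart was not counted.

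**Figure D3:**
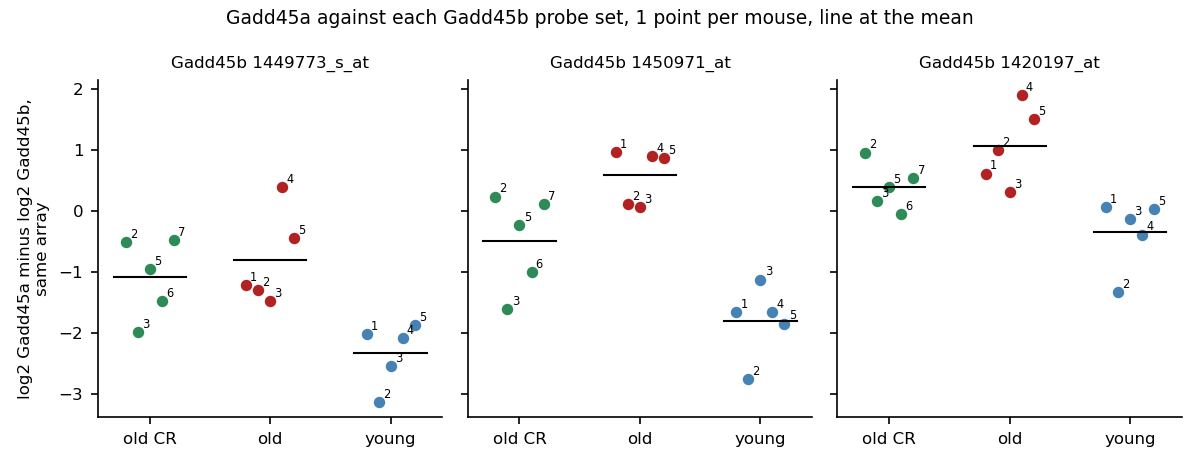
Log2 intensity of Gadd45a minus that of each Gadd45b probe set on the same array, with 1 point per mouse (number: replicate) and a line at the group mean, for old CR, old and young mice. In each panel the 5 old mice lie above the 5 young mice, and the old CR mice reach from below the lowest old mouse up into the old range. All panels share the same Gadd45a values.

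Across the 15 mice the members were related to each other and to RNA integrity, in 15 relations with 100000 permutations each, two-sided and adjusted over the 15. The Gadd45b probe sets 1449773_s_at and 1450971_at had r = 0.60 (permutation p = 0.017, adjusted p = 0.0637) and rho = 0.70 (permutation p = 0.00492, adjusted p = 0.0446), with r = 0.63 after leaving out the 2 most distant mice. After the group means were taken off, r was 0.47 (permutation p = 0.114), so the relation within groups did not pass. The probe sets 1450971_at and 1420197_at had r = 0.69 (permutation p = 0.00432, adjusted p = 0.0324), the only pair of members to pass on r. Their rho was 0.50 (permutation p = 0.0572, adjusted p = 0.286), r was 0.45 without the 2 most distant mice and 0.46 within groups (permutation p = 0.128), so this relation rested on those mice and did not pass within groups. The third pair of this gene, 1449773_s_at and 1420197_at, had r = 0.09 (permutation p = 0.754). Gadd45b 1420197_at and the mean 3' minus 5' difference had r = -0.81 (permutation p = 0.00034, adjusted p = 0.0051) and rho = -0.69 (permutation p = 0.00595, adjusted p = 0.0446), with r = -0.75 without the 2 most distant mice and -0.35 within groups (permutation p = 0.248). Gadd45b 1450971_at had r = -0.63 with that difference (permutation p = 0.0112, adjusted p = 0.0559) and rho = -0.29 (permutation p = 0.293), with r = -0.31 without the 2 most distant mice. Gadd45a had r = 0.19 with that difference (permutation p = 0.504) and r = -0.46, -0.30 and -0.22 with the 3 Gadd45b probe sets, none of which passed.

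The proteins that GADD45 binds come next, since the family acts through them. Of 8 such genes 7 were measured, the brightest probe set standing for the gene, and 2 rose in old against young mice (0.119% of all probe sets rose), while 0 fell. Cdkn1a, which encodes p21, measured 946, 875, 905, 1109 and 1772 in old mice 1 to 5 and 309, 416, 441, 370 and 444 in young mice 1 to 5. No old mouse came near the young range. On the log2 scale the difference was 1.46 (SE 0.19, limma, adjusted p = 0.015). Npm1, a nucleolar chaperone, averaged 2637 ± 478 in old mice and 1372 ± 235 in young mice (SD, n = 5 each), or 0.94 apart on the log2 scale (limma, adjusted p = 0.0417). Its second probe set gave 0.47 (limma, adjusted p = 0.272). In old CR mice Cdkn1a measured 698, 649, 589, 510 and 658, below every old mouse, and fell by 0.81 on the log2 scale against old mice (limma, adjusted p = 0.0304), as the only 1 of the 7 called. It stayed above every young mouse, with a log2 difference of 0.65 between old CR and young mice (limma, adjusted p = 0.186). Map3k4, the kinase that GADD45 activates, had a log2 difference of -0.79 between old CR and old mice (limma, adjusted p = 0.201).

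These calls depended on single arrays to different degrees, as did the calls over all probe sets. Between old and young mice 27 of these were called higher and 33 lower, but 0 without young mouse 1, and 334 and 733 without young mouse 3. The call of Cdkn1a with age ended only without young mouse 1 (limma, adjusted p = 0.0549), and with the diet it ended without old mouse 4 or old CR mouse 5, 6 or 7 (limma, adjusted p = 0.0546 to 0.0669). That of Npm1 held only without young mouse 3, old mouse 1 or 3, or old CR mouse 2 or 3, and reached an adjusted p of 0.11 in limma without another. With RNA integrity as a covariate the log2 difference of Cdkn1a with age had an adjusted p of 0.452 in limma, and every other call on a listed gene ended too. This is not particular to these genes. In that fit 0 of all 22626 probe sets were called between old and young mice and 0 between old CR and old mice. Between old CR and young mice 6 were called higher and 2 lower. The second, dimmer Cdkn1a probe set gave a log2 difference of 0.70 between old and young mice (limma, adjusted p = 0.633).

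In the p38 and JNK cascade downstream of the family, 18 of 20 listed genes were measured. Against young mice 1 fell in old mice (0.146% of all probe sets fell) and 0 rose. This was Map2k6, the kinase that activates p38, at 621, 503, 588, 365 and 527 in old mice 1 to 5 and 1155, 980, 1073, 1026 and 1034 in young mice 1 to 5. Every old mouse was far below every young one, and the log2 difference was -1.04 (SE 0.14, limma, adjusted p = 0.015). Among single arrays the call ended only without young mouse 1 (limma, adjusted p = 0.0549), where 0 of all 22626 probe sets were called. Old CR mice measured 593 to 750, below every young mouse and overlapping the highest old mouse. Map3k5, a stress-activated kinase, had a log2 difference of -0.67 (limma, adjusted p = 0.125), and Dusp10, a phosphatase of p38 and JNK, of -0.85 (limma, adjusted p = 0.136). Between old CR and old mice, 1 of the 18 fell (2.17% of all probe sets fell). This was Map3k7, the TGF-beta activated kinase, at 584 ± 58.4 in old CR mice and 829 ± 84.7 in old mice (SD, n = 5 each). It differed by -0.51 on the log2 scale (limma, adjusted p = 0.0367). None of its other 4 probe sets was called, and the call ended without any of old mice 1, 2, 3 and 5 or old CR mice 2, 5, 6 and 7 (limma, adjusted p up to 0.0835). Between old CR and young mice Map2k4, which activates JNK, fell (0.0398% of all probe sets fell), at 855 ± 75.3 in old CR mice and 1363 ± 145 in young mice (SD, n = 5 each). Its log2 difference was -0.67 (limma, adjusted p = 0.0472), and the call held only without old mouse 4 when single arrays were left out. The second Map2k4 probe set gave -0.15 (limma, adjusted p = 0.765).

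Of 25 transcription factors and signal carriers upstream of the family, 21 were measured. Smad3, which carries TGF-beta signals to the nucleus, was the only 1 called with age, and it fell, as did 0.146% of all probe sets. It measured 227, 108, 121, 171 and 220 in old mice 1 to 5 and 443, 604, 237, 619 and 601 in young mice 1 to 5. The groups were apart by a narrow margin, since young mouse 3 lay close to the highest old mouse. This gave a log2 difference of -1.55 (SE 0.29, limma, adjusted p = 0.0455), and the call held only without young mouse 3 or old mouse 1. The dimmer Smad3 probe set gave -1.08 (limma, adjusted p = 0.425). In old CR mice Smad3 measured 316 to 541, above every old mouse, and rose by 1.29 on the log2 scale against old mice (limma, adjusted p = 0.0262, where 2.7% of all probe sets rose). That call ended without old mouse 2 or 3 or old CR mouse 6 or 7 (limma, adjusted p up to 0.0629), and without both keratin-rich old arrays the log2 difference was 0.95 (limma, adjusted p = 0.147). Its partner Smad4 fell, at 1126 ± 253 in old CR mice and 1753 ± 244 in old mice (SD, n = 5 each). It differed by -0.66 on the log2 scale (limma, adjusted p = 0.0435), and the call held only without young mouse 2 or 3 or old CR mouse 5 among single arrays. The other Smad4 probe sets gave -0.49 (limma, adjusted p = 0.0575) and -0.77 (limma, adjusted p = 0.0452). Relb, an NF-kB subunit, had a log2 difference of 1.08 between old and young mice (limma, adjusted p = 0.143).

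**Figure D4:**
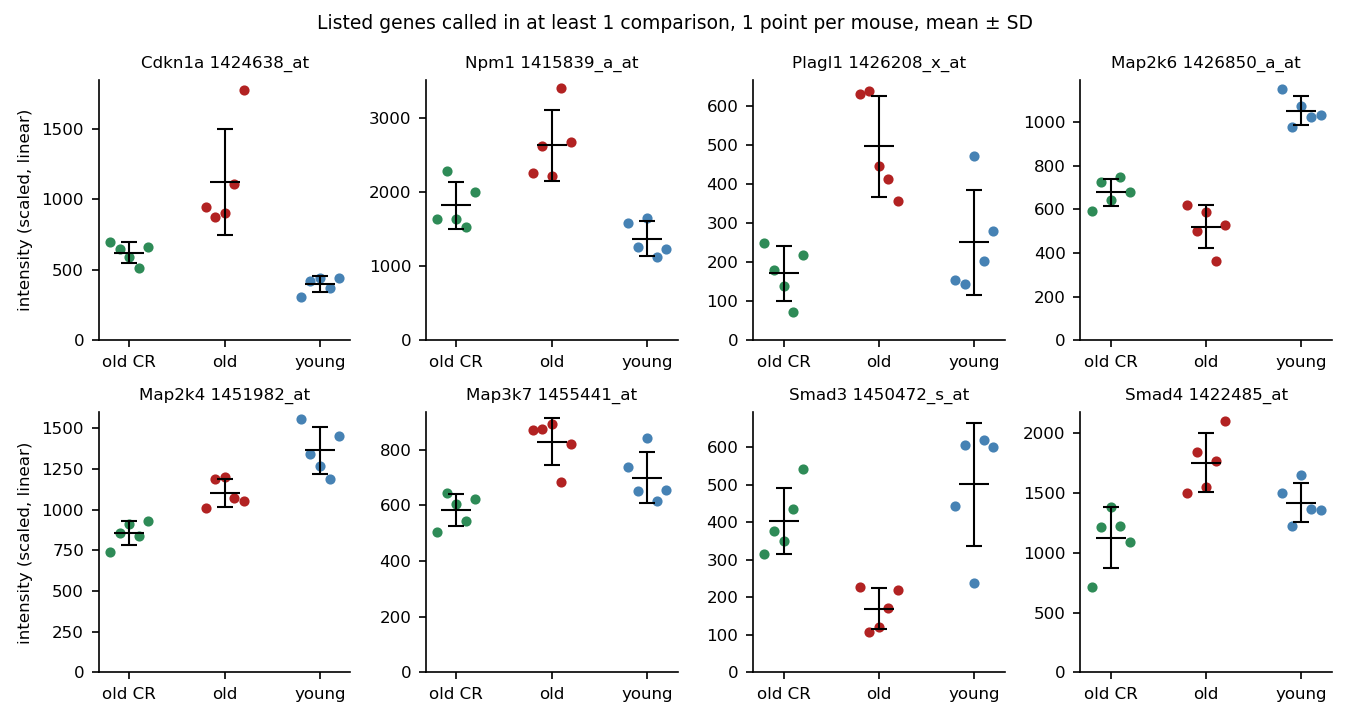
Scaled linear intensity of the 8 listed pathway genes that were called in at least 1 comparison, with 1 point per mouse and the mean ± SD, for old CR, old and young mice. Cdkn1a lies between 875 and 1772 in old mice, with the old CR mice at 510 to 698 and the young mice at 309 to 444, and Map2k6 runs the other way between the ages.

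Of 30 target genes of p53, 26 were measured. Cdkn1a alone rose with age (0.119% of all probe sets rose), and 0 fell (0.146%). At an unadjusted p under 0.05 in limma 5 of the 26, Cdkn1a among them, were higher and 0 lower, beside 6.24% and 9.25% of all probe sets. The median log2 difference between old and young mice was 0.03, beside -0.06 for all probe sets. Of the 26 genes 14 averaged higher and 12 lower in old mice. Some were dim, with single values down to 2.13 in old mice. Between old CR and old mice Cdkn1a and Plagl1 fell (2.17% of all probe sets fell) and 0 rose (2.7%). Plagl1, a zinc finger protein that restrains growth, measured 250, 179, 138, 71.1 and 219 in old CR mice 2, 3, 5, 6 and 7 and 356 to 638 in old mice, with a median of 446. The groups were well apart, and the log2 difference was -1.62 (SE 0.37, limma, adjusted p = 0.0274). The call ended without old mouse 1, 2 or 3 or old CR mouse 5 or 6 (limma, adjusted p up to 0.0667). The dimmer Plagl1 probe set gave -0.77 (limma, adjusted p = 0.379). Of the genes that the study ties to p53 besides Gadd45a, 13 were listed, and all were measured. The study picked them on these samples, so they are not independent evidence of a direction. Of these, 1 rose with age (Cdkn1a) and 0 fell, with a median log2 difference of 0.47, and 2 fell in old CR against old mice (Cdkn1a and Plagl1), with a median of -0.37. Among the 12 not called with age, the log2 difference was 0.89 for Rb1, the retinoblastoma protein (limma, adjusted p = 0.0958), and 0.46 for Mcl1, a survival factor (limma, adjusted p = 0.12). For 5 of the 13 genes (Mcl1, Mdm2, Ccng1, Sesn1 and Bcl6) the brightest probe set, which stands for the gene here and in the medians, is not one that the study lists. The probe sets of the study gave 0.37 to 0.67 for Mcl1 (limma, adjusted p = 0.0767 to 0.388). Bcl6, a transcriptional repressor, had a log2 difference of -0.47 (adjusted p = 0.592), and -0.94 with the probe set of the study (adjusted p = 0.165), both by limma. Mdm2, the ubiquitin ligase of p53, had a log2 difference of -0.04 (adjusted p = 0.937), and -0.21 with the probe set of the study (adjusted p = 0.727), both by limma. Ccng1, a cyclin induced by p53, had -0.08 (adjusted p = 0.835), and -0.65 with that of the study (adjusted p = 0.157), both by limma. Sesn1, a stress-induced inhibitor of mTORC1 signaling, had -0.14 (adjusted p = 0.758), and 0.32 and 0.46 with those of the study (adjusted p = 0.642 and 0.256), all by limma.

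Further lists showed few calls. Of 9 growth arrest and DNA damage inducible genes outside the family, all measured, 0 were called by limma in any comparison, although 2 had an unadjusted p under 0.05 with age, beside 15.5% of all probe sets at that level. Ddit3, the stress factor CHOP, had a log2 difference of -1.19 between old and young mice (limma, adjusted p = 0.28), and Gas6, a growth factor of the TAM receptors, of 0.32 (limma, adjusted p = 0.202). Of 24 genes of DNA demethylation and excision repair, to which GADD45 proteins have been linked, 19 were measured and 0 were called by limma, with 4 at an unadjusted p under 0.05 with age, beside the same 15.5%. Ung, a uracil glycosylase, had a log2 difference of -0.74 (limma, adjusted p = 0.101). Of 20 genes known to respond to denervation, 16 were measured, and Cdkn1a was the only 1 called with age (0.265% of all probe sets) or with the diet (4.87%). Subunits of the acetylcholine receptor differed in direction between old and young mice. The log2 difference was 0.79 for Chrnb1 (limma, adjusted p = 0.0539), 0.55 for Chrna1 (limma, adjusted p = 0.123) and 0.56 for Chrng. It was -0.05 for Chrne and -0.45 for Chrnd, and -0.96 for Runx1, another gene of the list (limma, adjusted p = 0.15). The median of this list was 0.36 between old and young mice and 0.00 between old CR and old mice. Of the 16 genes, 11 averaged higher and 5 lower in old than in young mice. At an unadjusted p under 0.05 in limma 5 were higher and 1 lower, beside 6.24% and 9.25% of all probe sets. A pair of old mice stood apart in the summed intensity of the 16 genes, in which the brightest genes weigh most. It was 16594 in old mouse 4 and 15141 in old mouse 5, against 7786 to 9809 in the other 3 old mice. The sums were 7667 to 10663 in old CR mice and 6855 to 8343 in young mice. Old mice 4 and 5 are also the old mice with the highest Gadd45a, at 924 and 546, and the part of this in the Gadd45a difference was not tested.

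Genes with the most similar profile over the 15 mice were searched among 10379 of the brighter probe sets, those with 1 symbol, by Pearson's r of log2 intensity. The mice share groups and array scaling, so r is a description. Gadd45a ran closest to Rb1 (r = 0.82), Etf1, a release factor of translation (r = 0.82), the fatty acid transporter Cd36 (r = 0.82), Septin11 (r = 0.79) and Mcl1 (r = 0.79), and most opposite to Traf7 (r = -0.85), Gpat4 (r = -0.84) and the collagen chaperone Serpinh1 (r = -0.83). Rb1 and Mcl1 also stand in the p53 list that the study picked. The brightest Gadd45b probe set, 1449773_s_at, ran closest to Jarid2 (r = 0.89), Srebf1 (r = 0.83), Trim25 (r = 0.80), Mrtfa (r = 0.80) and Mob4 (r = 0.79), and most opposite to Slc66a2 (r = -0.85), Timp4 (r = -0.78) and F2r (r = -0.76). Gadd45g ran closest to Polr2f (r = 0.87), Med23 (r = 0.83), Ell (r = 0.82), Sox17 (r = 0.76) and Rnf111 (r = 0.75), and most opposite to Ccl11 (r = -0.77), Nucb1 (r = -0.77) and Asxl1 (r = -0.76). No gene was named for more than 1 member.

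Markers of other cell types moved between the groups too, and their part in the Gadd45 values was not tested. All 14 fiber markers averaged lower in old than in young mice (median log2 difference -0.19), with 0 called by limma and 0 at an unadjusted p under 0.05. All 14 averaged higher in old CR than in old mice (median 0.32), with 1 called by limma, beside 2.7% of all probe sets called higher. At an unadjusted p under 0.05, 8 of the 14 were higher, beside 12.5% of all probe sets. Of 12 macrophage markers, 9 averaged higher in old than in young mice, with sums of 6121 to 7904 in old CR mice, 8281 to 11589 in old mice and 4683 to 10822 in young mice. The sums of 6 B and plasma cell markers were 2792 to 5268 in old CR mice, 6986 to 9371 in old mice and 3784 to 6583 in young mice, so the old mice overlapped neither other group. Bright markers weigh most in such a sum. By marker, 3 averaged higher and 3 lower in old than in young mice, and 2 higher and 4 lower in old CR than in old mice. The sums of 10 fibroblast and tendon markers were 17547 to 24123 in old CR mice, 19946 to 31672 in old mice and 26501 to 40624 in young mice. Satellite cell markers summed to 1510 to 2025 in old CR mice, 1459 to 1593 in old mice and 1328 to 1983 in young mice.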

How the data were processed

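RNA of the gastrocnemius of 15 mice was read on MOE430A arrays, 1 per mouse. Per the sources, messenger RNA was amplified to biotin-labelled cRNA, and the submitters' processing notes name MAS5 and RMA, with versions not given in the sources used here. The authors averaged 2 scans of each array, and deposited a table with a single linear intensity for each probe set of an array. Its mean after trimming 2% at each end is 500.0 on every array, as array-wise scaling gives, so the values are not those of RMA. Detection calls were not used.

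The values were converted to log2 without a pseudocount (the lowest was 0.119), 64 control probe sets were set aside, and the other 22626 entered limma 3.58.1 under R 4.3.3 (3 groups in 1 fit, eBayes without trend). p-values were adjusted by Benjamini and Hochberg over all probe sets and called under 0.05. By the annotation 20380 probe sets have 1 symbol, 691 have several and 1555 have none, and only the first name a gene. All 3 members matched the RefSeq promoter table. Other values were computed with Python 3.11.15, NumPy 2.4.6, SciPy 1.17.1 and pandas 2.3.3, and the tests were checked on simulated data. The number of arrays limits the precision.

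Members and gene lists were chosen with earlier results of these data known, and the motifs with the sequences in view. Named are all member probe sets, up to 4 called genes per list and comparison (else the 2 with the smallest p), genes of the list named by the study, and the 5 most and 3 least alike of each member. Alternatives were the 11313 brighter probe sets, median centering, quantile normalization, a pseudocount of 16, only the groups compared, a variance trend, array weights, a replicate block, a threshold of 0.10, an RNA integrity covariate, the lognormal-normal model, each array left out, log2 means, and averages over the probe sets of a gene. Leaving out both keratin-rich old arrays was added after seeing the data.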

Additional observations from a re-analysis of the deposited data

Results flagged for a closer look

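In 1 of the 15 sets of 5 mice (5 probe sets in 3 groups), 1 mouse lay far from the others. For Gadd45b 1449773_s_at, old mouse 2 had an intensity of 1053, and its gap to the next mouse was 0.821 of the range of the old mice, above Dixon's critical value of 0.71 for 5 samples. Chance marks about 1 in 20 such sets. The same mouse is 1 of the 2 with a high sum of keratinocyte markers (10993), and the link was not tested. Without it the log2 difference of this probe set between old CR and old mice was 0.11 in place of -0.01.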

How the results depend on the processing

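Of the member results, those not listed here kept their direction and their side of the threshold under every alternative tried. CR prevention moved by less than its SD over single old CR mice in every alternative, and the pooled SDs moved little with median centering. Between old and young mice the number of members called was 0, but 2 among the 11313 brighter probe sets, 1 with a robust variance trend, 1 with array weights, 1 at an adjusted p under 0.10 and 2 by the lognormal-normal model, and 0 to 1 with single arrays left out. These were Gadd45a among the brighter probe sets (log2 difference 1.12, adjusted p = 0.0476) and by the model (PP = 0.999), and Gadd45b 1450971_at. The latter was called among the brighter ones (-1.28, adjusted p = 0.0266), with the trend (-1.28, adjusted p = 0.0374) and with array weights (-1.36, adjusted p = 0.0283). It was also called at 0.10 (-1.28), by the model (PP = 0.99999) and in at least 1 fit with a single array left out. Over all such fits its log2 difference ran from -1.47 to -1.04 (limma, adjusted p = 0.0248 to 0.193). Fewer probe sets share the adjustment among the brighter ones, where limma called 237 higher and 335 lower between old and young mice. Of all 22626 it called 170 higher and 248 lower with the trend, 257 and 513 with array weights, and 150 and 230 at 0.10. The main fit called 27 higher and 33 lower. Between old CR and old mice the count was 0, but 1 among the brighter probe sets and 1 at 0.10, both Gadd45b 1420197_at (0.38, adjusted p = 0.0294 among the brighter ones), and 1 by the model, Gadd45b 1450971_at (PP = 0.999). Between old CR and young mice it was 0, but 1 by the model, Gadd45a (PP = 0.983). For old CR against old mice limma called 863 higher and 915 lower of the 11313 brighter probe sets. At 0.10 it called 1300 higher and 989 lower of all 22626, against 612 and 490 in the main fit. All adjusted p-values are from limma.

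Differences near 0 changed sign. For Gadd45g between old and young mice (-0.04) the value was 0.052 with median centering, 0.052 with array weights, 0.27 with the covariate, 0.049 without both keratin-rich old arrays and -0.20 to 0.14 with single arrays left out. For Gadd45b 1449773_s_at between old CR and old mice (-0.01) it was 0.019 with quantile normalization, 0.43 with the covariate, 0.10 without both keratin-rich arrays and -0.16 to 0.11 with single arrays left out. For Gadd45g it was -0.12 between old CR and old mice with the covariate. The cause was not tested. The median of the p53 targets between old CR and old mice was 0.14 when the probe sets of a gene were averaged (0.03 with the brightest), and that of DNA demethylation and repair 0.00059 (-0.21).

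The replicate numbers mark different animals, and same-numbered mice of different groups did not deviate together (11 pairs, r = -0.28 to 0.09). With the number as a block, no member was called, every call on a listed gene ended, and 3 members' differences changed sign: Gadd45b 1449773_s_at between old CR and old mice (0.033), and Gadd45g between old CR and old (-0.15) and old CR and young mice (-0.19). The lost calls are not particular to these genes. Of all 22626 probe sets, the block left 0 called between old and young mice and 0 between old CR and young mice. Between old CR and old mice it left 2 higher and 2 lower.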
